A study of Homo sapiens with 9 samples.

Results

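Integrins and the proteins that join them to the actin cytoskeleton were examined as a set of 38 listed genes: 17 integrin subunits, their actin linkers, adaptors and kinases, and the caveola genes CAV1 and CAVIN1. The members were found by name: every probe set (a group of short probes for 1 transcript) whose annotation gives a listed gene and no other was taken. This gave 111 probe sets for 36 genes, out of 19775 genes on the array. FLNA and FLNC, which encode filamins, had no such probe set and were not analysed here. Where a gene had several probe sets, the brightest over all arrays stood for it in the counts below.

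The arrays hold RNA of Rh30 cells, an established human line of fusion-positive rhabdomyosarcoma (FP-RMS, a muscle-like tumor of childhood) that carries the PAX3-FOXO1 fusion, in 3 groups of 3 biological replicates. Xenografts were tumors of Rh30 cells in immunodeficient SCID/beige mice. The labels place these tumors under the skin of the flank, in Matrigel, from adherent or sphere cells, whereas the study's methods describe orthotopic tumors established from adherent cells. Spheres were grown in Neurobasal media with B27 (1X), bFGF (80 ng/ml), EGF (40 ng/ml) and insulin (50 µg/ml), and adherent cells as monolayers in serum-containing medium. All 3 groups come from 1 cell line with the same fusion, so the replicates do not cover differences between tumors. The values are log2 RMA values, so a difference of 1 is a 2-fold change.

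Integrins are pairs of an alpha and a beta subunit that span the cell membrane and bind matrix proteins such as fibronectin, laminins and collagens. Inside the cell, talins and kindlins bind the beta subunit's tail and switch the receptor on, vinculin and alpha-actinins tie it to actin, and adaptors such as paxillin collect kinases such as FAK (PTK2) there. These focal adhesions are large in cells spread on plastic. In muscle, related complexes with integrin alpha7 anchor the fibre to its laminin sheath, and caveolae, small pits of the membrane built by caveolins and cavins, buffer membrane tension.

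In xenografts, 17 of the 36 genes were lower than in adherent cells and 1 was higher, TLN1 (limma, adjusted p under 0.05 over all probe sets). The background for this comparison is that 26.9% of all genes changed, 14.3% lower and 12.6% higher, so the members' share of 47.2% lower stood above the general share and their 2.78% higher below it. Their median log2 difference was -0.23, beside 0.08 over all genes, and -0.15 beside 0.07 after quantile normalization. In spheres, 10 members were lower and 2 higher (TLN1 and VCL) than in adherent cells. Here 29.8% of all genes changed, 16.3% lower and 13.5% higher, against 27.8% and 5.56% of the members, with medians of -0.15 for the members and -0.04 over all genes. These 2 comparisons share their adherent arrays. Set against spheres, xenografts had 11 members lower and 5 higher, which was near the background, since 44.0% of all genes changed in this comparison and 44.4% of the members did. By direction, the members were lower in 30.6% of cases, with 18.3% over all genes, and higher in 13.9%, with 25.7% over all genes. Quantile normalization of the arrays turned this last split to 7 lower and 7 higher.

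**Figure D1:**
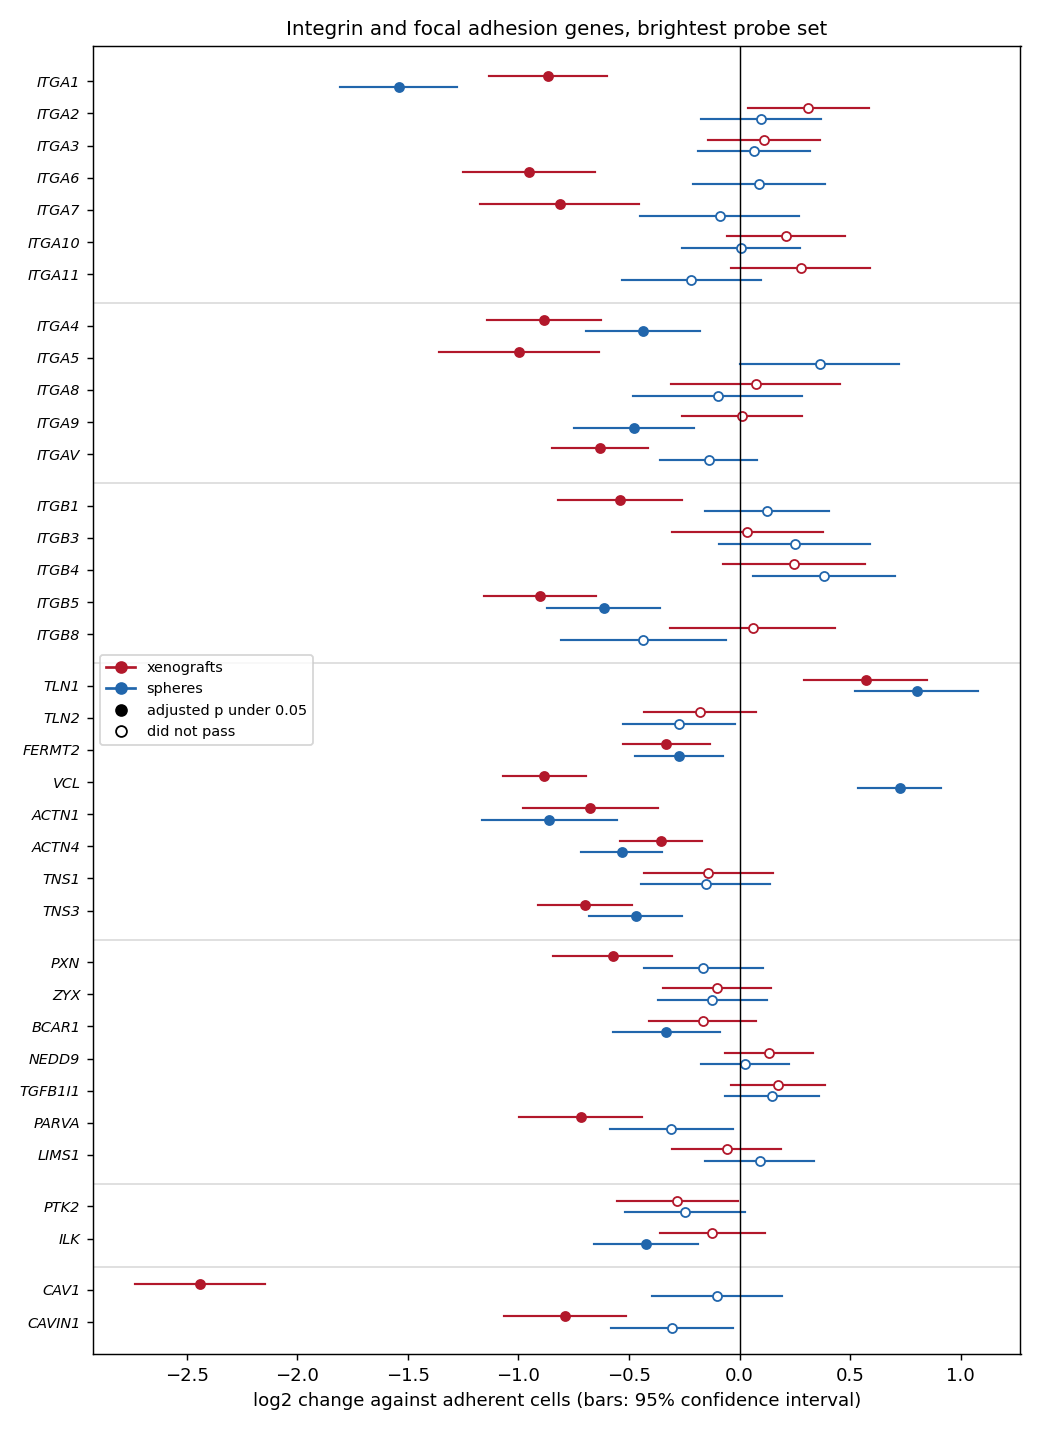
Log2 change of each of the 36 genes (rows, grouped by role) in xenografts (red) and spheres (blue) against adherent cells, brightest probe set, with 95% confidence intervals from the limma fit on 3 arrays per group. Filled points passed an adjusted p of 0.05. CAV1 lay furthest to the left in xenografts at -2.44, ITGA1 in spheres at -1.54, and VCL had filled points on both sides of 0.

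Some of these calls rested on single arrays. For spheres against adherent cells, ITGA4 did not pass without spheres replicate 2 or adherent replicate 2 (adjusted p = 0.0766 to 0.0795). ITGA9 did not pass without spheres replicate 2 or 3 or adherent replicate 3 (0.0540 to 0.0653), and ILK did not pass without adherent replicate 3 (0.0622). FERMT2 was lost in 6 and BCAR1 in 7 of the 9 fits that left out 1 array, with adjusted p-values of 0.0521 to 0.144 for FERMT2 and 0.0502 to 0.148 for BCAR1. For xenografts against adherent cells, ITGB1 did not pass without adherent replicate 2 (adjusted p = 0.0546), and FERMT2 was lost without xenografts replicate 3 or any 1 adherent array (0.0516 to 0.0820). For xenografts against spheres, ITGA4 was lost without spheres replicate 3 (0.0512), PXN without xenografts replicate 2 or spheres replicate 3 (0.0682 to 0.0727), ITGA11 without xenografts replicate 3 or spheres replicate 2 or 3 (0.0513 to 0.0815), and PARVA without xenografts replicate 1 or any 1 sphere array (0.0544 to 0.0645). ITGB8 was lost in 6 of these fits (0.0522 to 0.120) and ILK in 7 (0.0550 to 0.136). All other calls of the 36 genes passed with each array left out.

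The general features of the arrays bear on these comparisons. The myogenic and FP-RMS identity markers, such as MYOD1, MYOG and FGFR4, had a mean above 5 in 12 of 13 cases, with a summed linear level of 15300 to 16400 in xenografts, 11200 to 11800 in spheres and 15300 to 15900 in adherent cells. Tumors can hold mouse host cells, which human probes would see only through cross-hybridisation, and in such bulk RNA fewer human cells and less RNA per cell cannot be told apart. The 10 markers of fibroblasts and stromal matrix summed to 1830 to 3010 in xenografts, 1640 to 1940 in spheres and 1470 to 1580 in adherent cells, and 5 of them were higher and 1 lower in xenografts than in adherent cells. Of 10 endothelial markers, 8 had a mean at or below 5, a dim level, and their sums were 199 to 239 in xenografts, 180 to 205 in spheres and 184 to 193 in adherent cells. Adult skeletal muscle markers summed to 635 to 720 in xenografts, 309 to 332 in spheres and 331 to 359 in adherent cells. Of the 9 measured, 4 were higher, 1 was lower and 4 did not pass in xenografts against adherent cells. Their median log2 difference was 0.35, and 4 of them had a mean at or below 5. ACTA1, skeletal muscle actin, was 3.22 above adherent cells in xenografts on the log2 scale, so the sum does not describe each marker. Pericyte and smooth muscle markers summed to 366 to 521, 543 to 564 and 557 to 567 in xenografts, spheres and adherent cells, and 1 of 5 platelet markers was higher in xenografts than in adherent cells. Leukocyte markers summed to 681 to 779 in xenografts, 840 to 890 in spheres and 1530 to 1620 in adherent cells. Of the 11 leukocyte markers measured, 2 were higher and 1 lower in xenografts than in adherent cells, with a median log2 difference of 0.17. Over all genes, 12.6% were higher and 14.3% lower. LAPTM5 gave -3.55 in xenografts against adherent cells on the log2 scale, so the summed level does not show the direction of most of these markers. The 3′ to 5′ difference of ACTB, a sign of RNA integrity, was 2.30 to 2.75 in xenografts, 3.15 to 3.31 in spheres and 2.07 to 2.67 in adherent cells. The upper quartile of the arrays was 6.88 to 6.89 in xenografts, 7.05 to 7.09 in spheres and 7.02 to 7.06 in adherent cells. The part of these differences in the members' changes was not tested.

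Promoter stretches of 4 genes are printed, each with a motif that was searched for. ITGA5 and VCL changed at least 2-fold in a comparison described below, and ITGB1 and ACTN1, which changed less, were added by choice. PXN, ACTN4 and BCAR1 also changed and hold a motif but are not printed. RefSeq (GRCh38.p14) gave 57 start sites for 28 of the 36 members. ITGA3, ITGA7, ITGA9, ITGB3, ITGB4, PTK2, PARVA and CAVIN1 were not searched here. The 250 bases before each start were searched on both strands for GGAATG, the core read by TEAD factors, the partners of YAP and TAZ, for TGANTCA, read by AP-1, and for the CArG box read by SRF, a regulator of actin cytoskeleton genes. The capitals mark the matches. In ACTN1 the first run of capitals is the CArG box and CATTCC is the TEAD core on the other strand. The ACTN1 stretch lies before an inner start site, within the span of the gene.
ITGA5, chr12:54419306-54419385, minus strand: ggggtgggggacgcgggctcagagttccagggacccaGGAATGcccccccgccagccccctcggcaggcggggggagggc
VCL, chr10:73997908-73997987, plus strand: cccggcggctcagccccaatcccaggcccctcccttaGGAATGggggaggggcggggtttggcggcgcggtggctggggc
ITGB1, chr10:32958370-32958449, minus strand: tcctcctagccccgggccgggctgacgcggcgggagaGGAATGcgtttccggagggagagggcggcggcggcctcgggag
ACTN1, chr14:68977687-68977766, minus strand: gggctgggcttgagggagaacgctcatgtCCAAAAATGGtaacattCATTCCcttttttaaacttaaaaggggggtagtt

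GGAATG was found upstream of 7 members (ACTN1, ITGA10, ITGA5, ITGB1, PXN, TNS1 and VCL), at 14% of their 57 start sites and at 11.9% of all 35116 promoters. The CArG box lay upstream of ACTN1 and TGFB1I1, at 3.51% of the members' start sites and at 1.16% of all promoters. TGANTCA lay upstream of ACTN4, BCAR1 and LIMS1, at 5.26% of the members' start sites and at 6.57% of all promoters. Of the 5 members with a change of at least 2-fold, GGAATG lay upstream of 2, and the CArG box and TGANTCA upstream of 0. The matches of ACTN1, TGFB1I1, PXN, TNS1 and LIMS1 lie before inner start sites, within the span of the gene, and not before its outermost start. These matches describe the letters and are not evidence of binding.

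Among the 7 alpha subunits that bind laminins or collagens, ITGA1 fell in spheres, and ITGA1, ITGA6 and ITGA7 fell in xenografts. Over all genes, 16.3% were lower in spheres and 14.3% in xenografts. The groups by role are small, so their counts describe single genes. ITGA1, the collagen IV-binding alpha1 chain, had log2 values of 6.09, 5.65 and 5.94 in xenografts, 5.18, 5.18 and 5.30 in spheres, and 6.76, 6.63 and 6.88 in adherent cells. The 3 groups did not overlap, with spheres lowest and adherent cells highest. Spheres were 2.91-fold below adherent cells (log2 -1.54, SE 0.12, adjusted p = 3.4e-06) and xenografts 1.82-fold below them (-0.87, SE 0.12, adjusted p = 0.00042). Xenografts exceeded spheres by 0.67 (SE 0.12, adjusted p = 0.0010), but the other 2 ITGA1 probe sets, both dim, gave -0.11 and 0.03, and the mean of all its probe sets gave 0.20, which did not pass.

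ITGA6, a laminin receptor chain, behaved differently in xenografts and in spheres. Its values were 7.70, 7.47 and 7.48 in xenografts, 8.37, 8.69 and 8.71 in spheres, and 8.38, 8.77 and 8.35 in adherent cells. The xenograft arrays lay below all others, whereas spheres and adherent cells overlapped. Xenografts fell by 0.95 against adherent cells (SE 0.14, adjusted p = 0.00050) and by 1.04 against spheres (SE 0.14, adjusted p = 0.00011). In spheres the difference from adherent cells was 0.09 (95% interval -0.21 to 0.39, adjusted p = 0.73). A second ITGA6 probe set went the same way, at -1.60 in xenografts against adherent cells and -1.78 against spheres.

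ITGA7, the laminin receptor chain of skeletal muscle, averaged 7.32 ± 0.41 in xenografts, 8.04 ± 0.03 in spheres and 8.13 ± 0.09 in adherent cells (SD, n = 3 each), and was lower in xenografts by both comparisons (-0.81, adjusted p = 0.0042 against adherent cells; -0.72, adjusted p = 0.0047 against spheres). Its second probe set did not pass in either (-0.51 and -0.36, adjusted p = 0.13 and 0.22). ITGA2, ITGA3 and ITGA10 did not pass in any comparison with their brightest probe sets, and ITGA11, a collagen receptor chain of fibroblasts, passed in xenografts against spheres (0.50). The brightest probe sets of ITGA2, ITGA3, ITGA10 and ITGA11 had means at or below 5.

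Of the 5 alpha subunits that bind the RGD sequence of matrix proteins or belong to the alpha4 and alpha9 pair, 3 fell in xenografts and 2 in spheres. The shares lower over all genes were 14.3% and 16.3%. ITGA5, the alpha chain of the main fibronectin receptor, read 5.82, 6.52 and 6.45 in xenografts, 7.42, 7.74 and 7.70 in spheres, and 7.25, 7.27 and 7.25 in adherent cells. All 3 groups were apart, with xenografts lowest and spheres highest. Xenografts fell by 1.00 against adherent cells (SE 0.16, adjusted p = 0.0012) and were 2.57-fold below spheres (-1.36, SE 0.16, adjusted p = 6.0e-05). The sphere value exceeded the adherent one by 0.36, which did not pass (adjusted p = 0.14).

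ITGAV, which pairs with beta1, beta3, beta5 and beta8 to bind vitronectin and latent TGF-beta, averaged 11.14 ± 0.10 in xenografts, 11.63 ± 0.10 in spheres and 11.77 ± 0.11 in adherent cells. It was lower in xenografts by 1.55-fold against adherent cells (-0.63, adjusted p = 0.00090) and by 1.41-fold against spheres (-0.49, adjusted p = 0.0023). ITGA4, a receptor chain for VCAM1 and fibronectin, averaged 6.73 ± 0.11 in xenografts, 7.18 ± 0.15 in spheres and 7.62 ± 0.18 in adherent cells. It fell by 0.88 in xenografts (adjusted p = 0.00031) and by 0.43 in spheres (adjusted p = 0.017), and xenografts were also below spheres (-0.45), a call that quantile normalization ended (-0.28). A pair of dimmer ITGA4 probe sets gave larger differences in xenografts against adherent cells (-1.43 and -1.54). ITGA9 was dim and lower in spheres than in adherent cells (-0.48, adjusted p = 0.013), with 0.01 in xenografts. ITGA8 did not pass in any comparison.

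Beta subunits fell in 2 of 5 cases in xenografts and in 1 of 5 in spheres, beside 14.3% and 16.3% of all genes. ITGB1, the partner of most alpha chains above, averaged 11.51 ± 0.22 in xenografts, 12.17 ± 0.15 in spheres and 12.05 ± 0.13 in adherent cells. The xenograft arrays lay below the others, at -0.54 against adherent cells (adjusted p = 0.011) and -0.66 against spheres (adjusted p = 0.0018), and the next probe sets in brightness gave -0.84 and -0.95 for the second and -1.23 and -1.37 for the third. ITGB5, a vitronectin receptor chain, averaged 9.34 ± 0.23 in xenografts, 9.62 ± 0.04 in spheres and 10.24 ± 0.08 in adherent cells. It was the beta subunit that fell in both states, by 0.90 in xenografts (adjusted p = 0.00025) and 0.61 in spheres (adjusted p = 0.0019).

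ITGB3 and ITGB4 did not pass with their brightest probe sets. In xenografts against spheres, dimmer ITGB4 probe sets passed as higher (0.53, 0.37 and 0.28), whereas the brightest gave -0.14 and the remaining one 0.02. The one at 0.37 also passed against adherent cells (0.39, adjusted p = 0.049). For ITGB3, a dimmer probe set was lower in xenografts than in spheres (-0.62, adjusted p = 0.043), and its others did not pass. For ITGB8, a chain that with alphaV binds latent TGF-beta, the brightest probe set was higher in xenografts than in spheres (0.49, adjusted p = 0.039) and a dimmer one lower (-0.67, adjusted p = 0.0029), so the direction for this gene depended on the probe set. The mean over its probe sets gave -0.050.

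**Figure D2:**
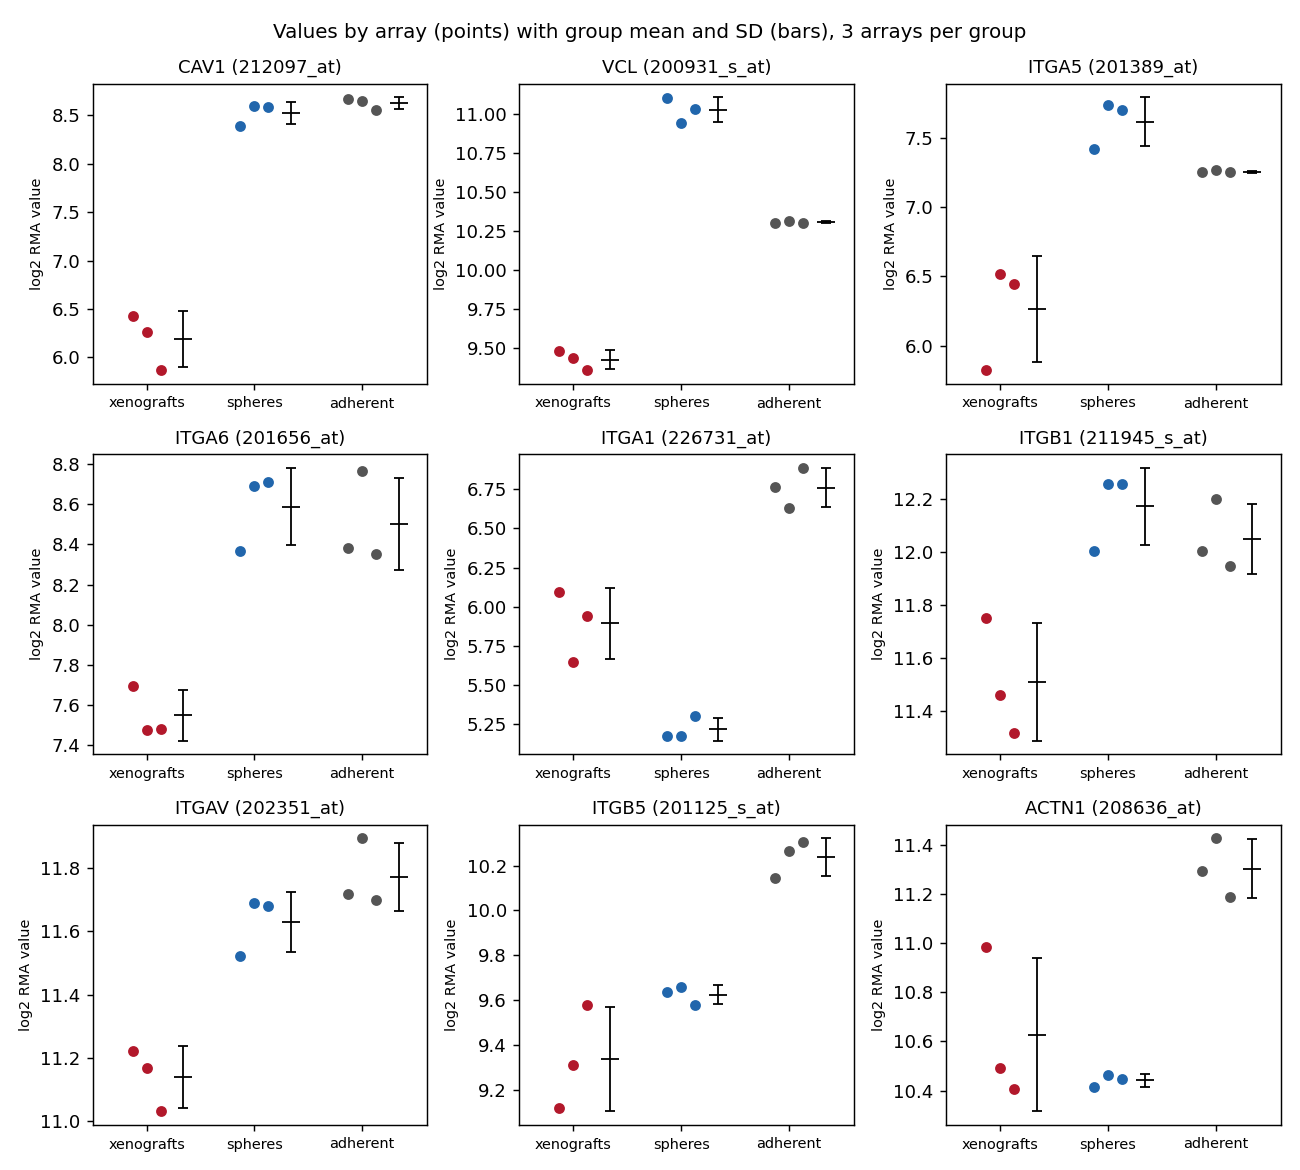
Log2 RMA value of each array (points) with the group mean and SD (bars), 3 arrays per group, for 9 members in xenografts, spheres and adherent cells, each axis with its own range. CAV1, VCL, ITGA5, ITGA6, ITGB1 and ITGAV had their 3 lowest arrays in xenografts, whereas ITGA1 had them in spheres.

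The 8 talins, kindlin and actin linkers gave 5 lower and 1 higher in xenografts, and 4 lower and 2 higher in spheres, against adherent cells. Beside these stand 14.3% lower and 12.6% higher over all genes in xenografts, and 16.3% and 13.5% in spheres. VCL, vinculin, which binds talin and actin under tension, read 9.48, 9.43 and 9.35 in xenografts, 11.10, 10.94 and 11.03 in spheres, and 10.30, 10.31 and 10.30 in adherent cells. The 3 groups were fully separate, with spheres above and xenografts below adherent cells. Spheres exceeded adherent cells 1.65-fold (0.72, SE 0.09, adjusted p = 7.0e-05), xenografts were 1.84-fold below adherent cells (-0.88, SE 0.09, adjusted p = 3.9e-05), and the direct comparison put xenografts 3.04-fold below spheres (-1.61, SE 0.09, adjusted p = 1.9e-07). A dim second VCL probe set gave 0.50 in xenografts against adherent cells (adjusted p = 0.024), and the mean of both gave -0.19, which did not pass.

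The alpha-actinins, which cross-link actin filaments, were lower in both states. ACTN1 averaged 10.63 ± 0.31 in xenografts, 10.44 ± 0.03 in spheres and 11.30 ± 0.12 in adherent cells, a fall of 0.67 in xenografts (adjusted p = 0.0048) and of 0.86 in spheres (adjusted p = 0.00063). ACTN4 averaged 8.14 ± 0.07 in xenografts, 7.96 ± 0.03 in spheres and 8.50 ± 0.03 in adherent cells, a fall of 0.35 (adjusted p = 0.011) and 0.53 (adjusted p = 0.00053). Quantile normalization ended the xenograft call of ACTN4 (-0.21).

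TNS3, a tensin that binds beta tails in fibrillar adhesions, fell by 0.70 in xenografts and 0.47 in spheres, and FERMT2, kindlin-2, by 0.33 and 0.27. With quantile normalization neither call of FERMT2 passed (-0.23 and -0.21). TLN1, the talin that activates integrins, was higher in both states by its brightest probe set, at 0.57 in xenografts (adjusted p = 0.0075) and 0.80 in spheres (adjusted p = 0.00055). A second TLN1 probe set gave -0.03 in xenografts and -0.10 in spheres and the third 0.06 and -0.06, none of which passed, so the rise was seen by 1 of 3 probe sets. TLN2, a talin of striated muscle, did not pass.

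TNS1, another tensin, did not pass with its brightest probe set, but a second one, chosen after its values were seen, read 4.41, 4.45 and 4.17 in xenografts, 6.02, 5.98 and 6.07 in spheres, and 6.29, 6.41 and 6.12 in adherent cells. The xenograft arrays lay far below the others on this probe set alone, at -1.93 against adherent cells (SE 0.11, adjusted p = 8.9e-07) and -1.68 against spheres. The other 4 TNS1 probe sets did not pass in any comparison.

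Of the 7 adaptors and scaffolds, PXN and PARVA fell in xenografts, and BCAR1, the Src substrate p130Cas, fell in spheres (-0.33). Lower over all genes were 14.3% in xenografts and 16.3% in spheres. PXN, paxillin, averaged 6.90 ± 0.27 in xenografts, 7.31 ± 0.04 in spheres and 7.48 ± 0.04 in adherent cells (-0.57 in xenografts against adherent cells, adjusted p = 0.0060, and -0.41 against spheres, adjusted p = 0.021). The mean of its probe sets gave -0.15 against adherent cells and 0.15 against spheres, neither of which passed. A dim PXN probe set was higher in xenografts than in spheres (0.71, adjusted p = 0.00021), and quantile normalization ended the call of the bright one there (-0.24). PARVA, alpha-parvin, which joins ILK to actin, was lower in xenografts by 0.72 with its brightest probe set (adjusted p = 0.0019).

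In spheres the brightest gave -0.31 against adherent cells, which did not pass (adjusted p = 0.11). The further PARVA probe sets disagreed. The second in brightness gave 0.03 in xenografts and -0.24 in spheres, and neither passed. The third was lower in both states (-0.82 and -0.55), and those dimmer than the fifth did not pass in either. The fourth and the fifth in brightness gave -1.39 and -1.13 in xenografts, and -1.23 and -1.49 in spheres, against adherent cells. Between xenografts and spheres, the brightest and the third were lower in xenografts (-0.41 and -0.27) and the second was higher (0.28), and quantile normalization ended the call of the brightest (-0.31). ZYX, NEDD9 and TGFB1I1, which encode zyxin, a relative of p130Cas and Hic-5, did not pass in any comparison. LIMS1, the PINCH protein that binds ILK, had single-gene probe sets with means at or below 5. A bright probe set that it shares with LIMS4 was lower in xenografts than in spheres (-0.47, adjusted p = 0.0042). Another bright one, shared with LIMS3 and LIMS4, did not pass there (-0.19, adjusted p = 0.20). Neither value can be assigned to LIMS1.

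The 2 kinases moved little by their brightest probe sets. ILK, a pseudokinase that holds PINCH and parvin together, averaged 9.47 ± 0.15 in xenografts, 9.17 ± 0.02 in spheres and 9.59 ± 0.15 in adherent cells. It fell in spheres against adherent cells (-0.42, adjusted p = 0.012). Xenografts were above spheres (0.30, adjusted p = 0.045), a call lost in 7 of the fits that left out 1 array. PTK2, FAK, gave -0.28 in xenografts and -0.25 in spheres, neither of which passed. Its 4 probe sets disagreed. The second in brightness was lower in xenografts (-0.53, adjusted p = 0.0020) and in spheres (-0.34, adjusted p = 0.018), whereas the third was far higher in spheres. For PTK2 on that probe set, given by array after its values were seen, the log2 values were 6.04, 5.77 and 5.98 in xenografts, 7.90, 9.33 and 8.73 in spheres, and 5.40, 5.37 and 5.65 in adherent cells. The sphere arrays were all above the others and were spread more widely than them. Spheres exceeded adherent cells by 3.17 (SE 0.27, adjusted p = 5.3e-06) and xenografts were 2.72 below spheres (log2 -2.72, adjusted p = 1.3e-05). The dimmest PTK2 probe set was also higher in spheres than in adherent cells (0.66, adjusted p = 0.017). Which stretch of the PTK2 transcript each probe set reads was not examined here.

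**Figure D3:**
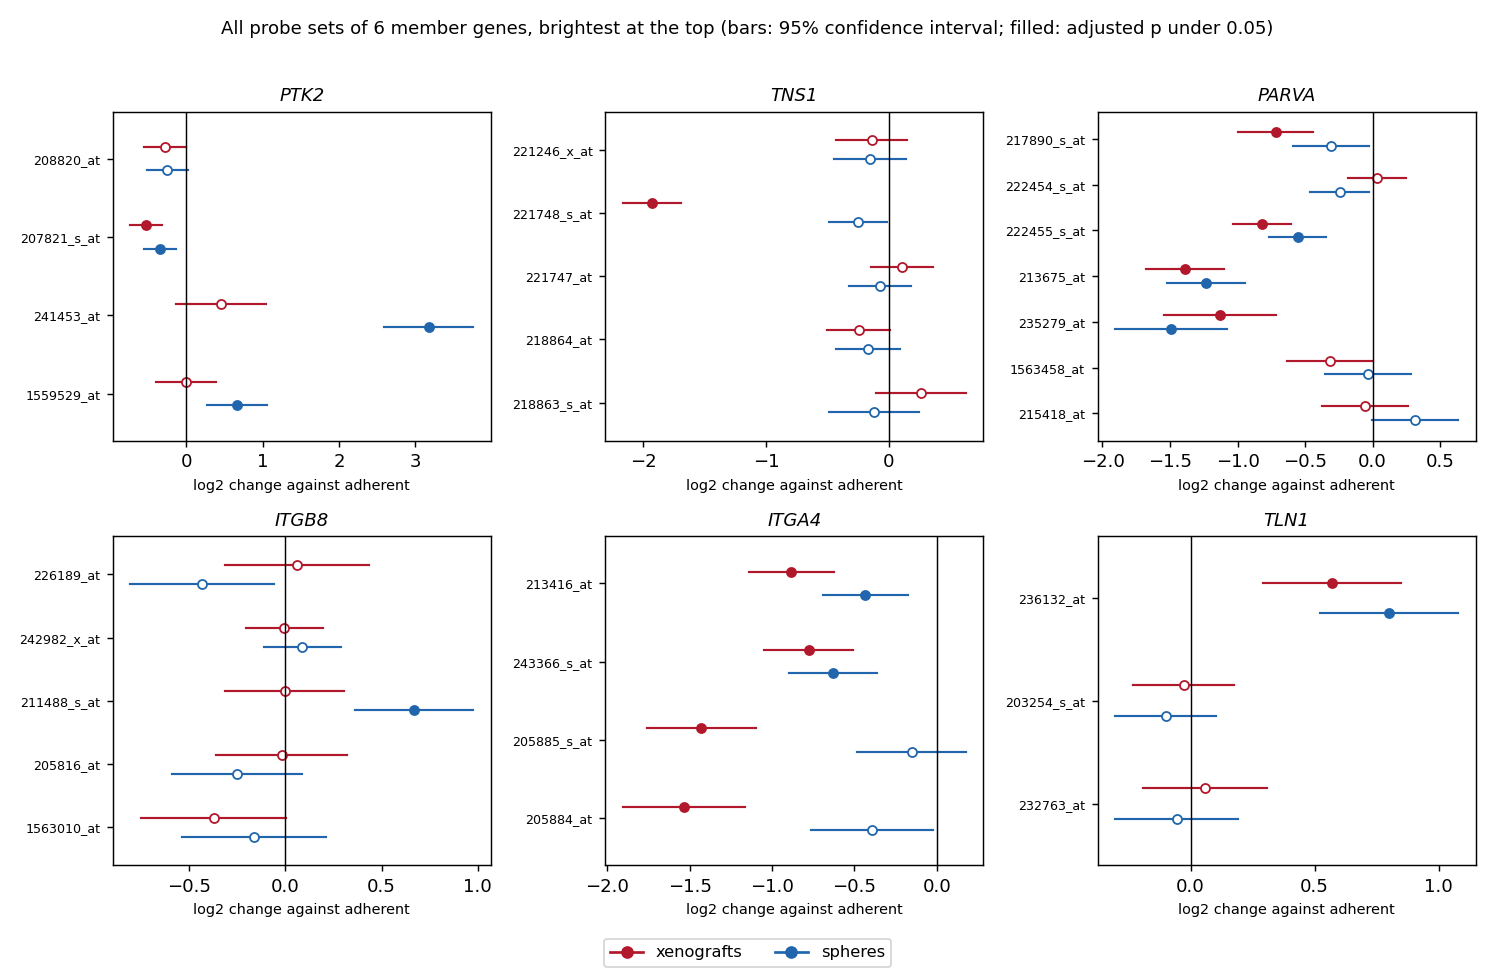
Log2 change against adherent cells for each probe set of 6 members, brightest at the top, in xenografts (red) and spheres (blue), with 95% confidence intervals and filled points for an adjusted p under 0.05. The third PTK2 probe set stood alone at 3.17 in spheres and the second of TNS1 at -1.93 in xenografts, whereas the probe sets of ITGA4 all lay left of 0.

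By brightest probe sets, CAV1 had the largest change of the 36 genes in either comparison with xenografts. CAV1, caveolin-1, the main coat protein of caveolae outside muscle, read 6.43, 6.26 and 5.87 in xenografts, 8.40, 8.60 and 8.58 in spheres, and 8.67, 8.65 and 8.56 in adherent cells. The xenograft arrays lay far below the rest, whereas spheres and adherent cells overlapped. Xenografts were 5.42-fold below adherent cells (-2.44, SE 0.13, adjusted p = 8.1e-07) and 5.06-fold below spheres (-2.34, SE 0.13, adjusted p = 2.9e-07). Spheres differed from adherent cells by -0.10 (95% interval -0.39 to 0.19, adjusted p = 0.68). The second CAV1 probe set gave -2.46, -2.35 and -0.11 for the same comparisons.

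CAVIN1, the cavin that stabilises caveolae, averaged 7.13 ± 0.27 in xenografts, 7.62 ± 0.10 in spheres and 7.92 ± 0.04 in adherent cells. It fell by 0.79 in xenografts against adherent cells (adjusted p = 0.0010) and by 0.48 against spheres (adjusted p = 0.010). Against adherent cells the second CAVIN1 probe set gave -0.12, which did not pass (adjusted p = 0.35), and the third -0.30 (adjusted p = 0.048). Quantile normalization (-0.34) and the mean of its probe sets (-0.16) each ended the call against spheres. Of 8 further caveola genes, 5 were lower and none higher in xenografts, and 3 were lower and 1 higher in spheres, against adherent cells, beside 14.3% lower and 12.6% higher over all genes in xenografts and 16.3% and 13.5% in spheres. CAV2, which forms oligomers with caveolin-1, averaged 6.66 in xenografts, 8.71 in spheres and 8.24 in adherent cells, so that it gave -1.57 in xenografts (SE 0.15, adjusted p = 2.6e-05) and 0.47 in spheres (SE 0.15, adjusted p = 0.031) against adherent cells. The muscle forms CAV3 and CAVIN4 fell in both states, CAV3 with -1.95 in xenografts and -1.22 in spheres, and CAVIN4 with -1.11 and -1.51. Against spheres, xenografts were lower in CAV2 (-2.05, adjusted p = 1.2e-06) and in CAV3 (-0.73, adjusted p = 0.027), whereas CAVIN4 gave 0.40, which did not pass.

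**Figure D4:**
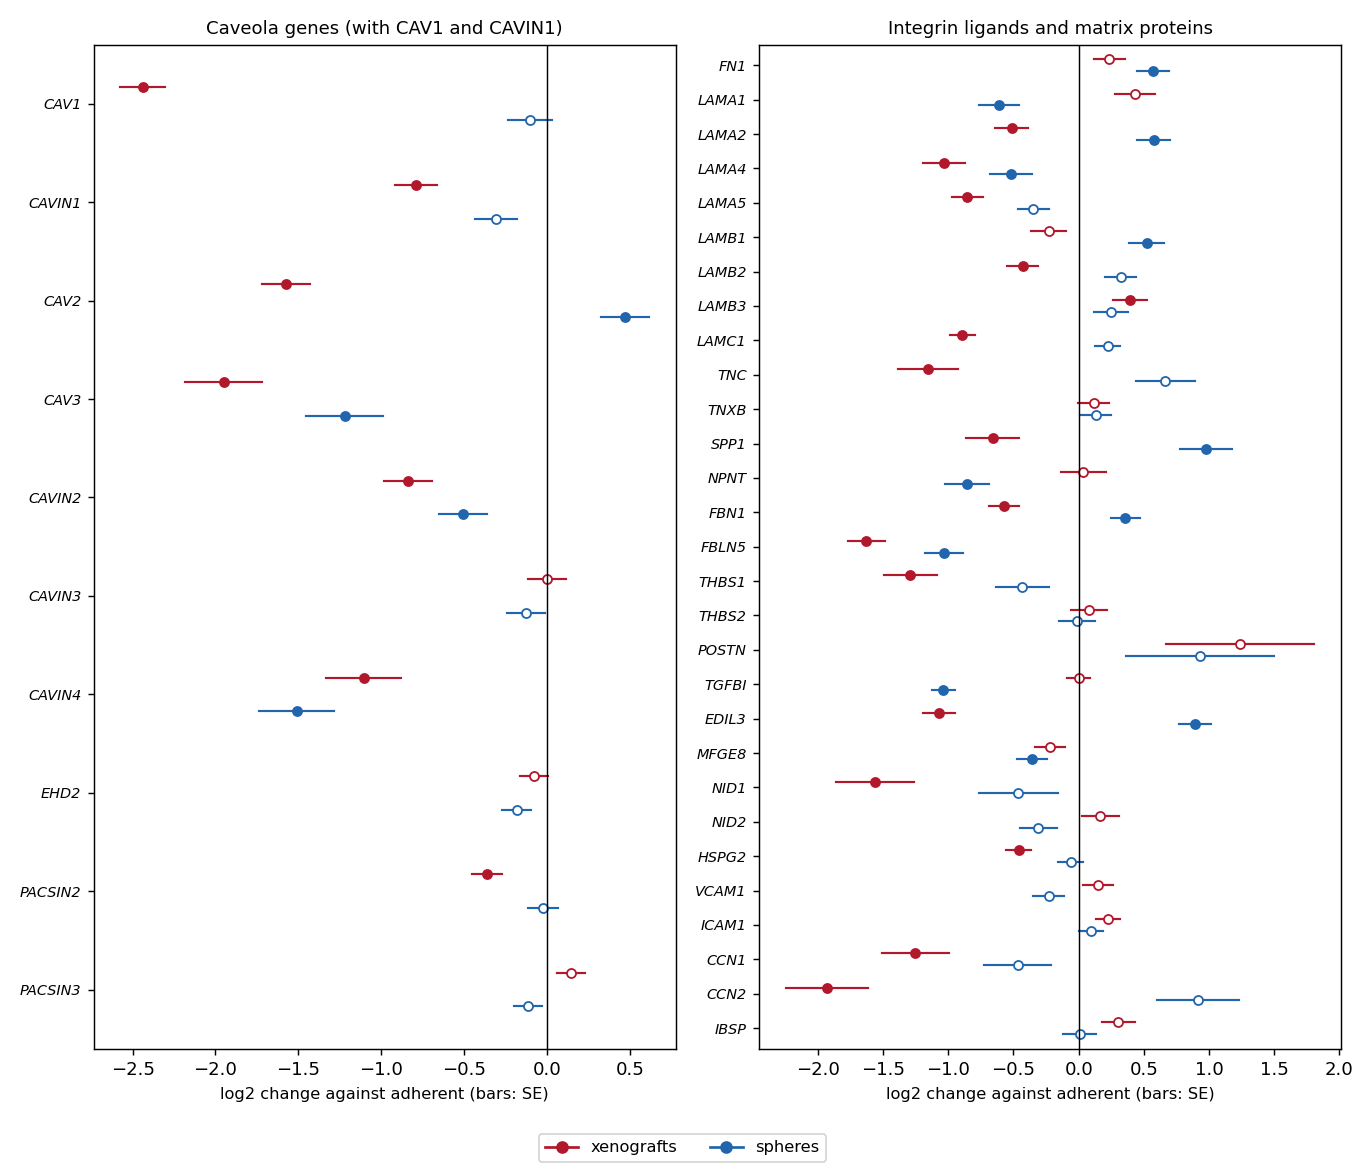
Log2 change against adherent cells (points, with SE bars) of caveola genes (left) and of integrin ligands and other matrix proteins (right), in xenografts (red) and spheres (blue), with filled points for an adjusted p under 0.05. In xenografts CAV1 (-2.44), CAV3 (-1.95) and CAV2 (-1.57) lay furthest left among the caveola genes, and CCN2 (-1.93) and FBLN5 (-1.63) among the ligands.

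The ligands that these receptors bind also differed. Of 29 measured non-collagen ligands and matrix proteins, 15 were lower and 1 higher in xenografts than in adherent cells, with a median of -0.43, beside 14.3% lower and 12.6% higher over all genes. In spheres 6 were lower and 6 higher, with a median of 0.01, beside 16.3% and 13.5%. CCN2, a matricellular protein that binds integrins, averaged 4.41 in xenografts, 7.26 in spheres and 6.34 in adherent cells, so that xenografts fell by 1.93 against adherent cells (SE 0.31, adjusted p = 0.0011) and by 2.85 against spheres (SE 0.31, adjusted p = 3.0e-05). Its xenograft level was dim, below 5, so the sizes of these falls are uncertain. FBLN5, an elastic fibre protein with an RGD motif, fell in both states (-1.63 in xenografts and -1.03 in spheres). NID1, a basement membrane linker, and THBS1, thrombospondin-1, fell in xenografts (-1.56 and -1.29).

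In spheres, EDIL3, an RGD ligand, was higher than in adherent cells (0.90), and TGFBI was lower (-1.04). The sphere mean of TGFBI, 4.54, was dim, below 5, so the size of its fall is uncertain. SPP1, osteopontin, passed as higher in spheres, but its means of 2.83 in xenografts, 4.47 in spheres and 3.49 in adherent cells were all dim, below 5. Xenografts against spheres gave 17 ligands lower and 5 higher, beside 18.3% lower and 25.7% higher over all genes. Those lower included EDIL3 (-1.96) and TNC (-1.82), the anti-adhesive matrix protein tenascin-C.

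The members' arrays did not overlap between groups for 19 of 36 genes in xenografts against adherent cells, where 43.9% of all genes did not overlap, and for 23 in spheres against adherent cells, where 47.7% did not. In xenografts against spheres this was so for 17 genes, with 52.8% over all genes. The brightest probe set of 7 members had a mean at or below 5. Without such dim genes, 17 of 29 members were lower and 1 higher in xenografts than in adherent cells, with a median of -0.54, beside 21.8% lower, 14.5% higher and a median of -0.01 over all genes of that brightness. In spheres these counts were 9 lower and 2 higher, beside 24.1% and 19.0%. Xenografts against spheres gave 11 lower and 3 higher, beside 26.7% and 27.8%.

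A change of at least 2-fold was rarer. It was reached in xenografts against adherent cells by CAV1, which was lower, with 2.48% of all genes that far lower and 0.799% that far higher. ITGA1 reached it in spheres against adherent cells, also lower, with 2.75% of all genes lower and 3.06% higher. In xenografts against spheres CAV1, VCL, ITGA5 and ITGA6 reached it, all lower, with 4.87% of all genes lower and 2.70% higher. Over all 111 probe sets of the members, 39 were lower and 3 higher in xenografts than in adherent cells, beside 13.2% lower and 9.78% higher (23.0% in all) over the whole array. In spheres against adherent cells 22 were lower and 6 higher, beside 12.6% and 13.3% (26.0% in all), and in xenografts against spheres 26 were lower and 14 higher, beside 18.5% and 20.6% (39.1% in all). Probe sets of 1 gene read the same transcripts, so these counts are not independent.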

How the data were processed

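RNA of Rh30 xenografts, spheres and adherent cells was measured on Affymetrix U133 Plus 2.0 arrays. The deposited values are log2 values per probe set, made by the authors with RMA, which corrects background, aligns the arrays and summarises the probes. The RMA version is not given in the sources used here. After 62 control probe sets were set aside, a linear model with a mean for each group was fitted to 54613 probe sets on all 9 arrays (limma 3.58.1, R 4.3.3, 6 residual degrees of freedom). Benjamini-Hochberg adjustment ran over all of these, with a threshold of 0.05. The annotation of the array gave 41091 probe sets 1 symbol, 1801 several and 11721 none.

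The members, gene lists and markers were chosen with earlier results of these data known. Values per array are given for members whose brightest probe set passed in any comparison with a log2 change of at least 1, probe sets called in opposite directions are named, and up to 4 genes of each further list are named for each comparison. The probe sets of PTK2, TNS1, ITGA2, ITGB3 and ITGB4 singled out in the text were chosen after their values were seen. 1 further list is not reported here. Promoters came from RefSeq. The alternatives were another normalization or centring, a filter on dim probe sets, other fits and weights, a block for the replicate number, the t-test the methods name, an added 2-fold threshold, other choices of probe set, and each array left out in turn. The fit was tested on simulated data. The number of arrays limits the precision.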

Additional observations from a re-analysis of the deposited data

Results flagged for a closer look

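VCL drew attention because spheres and xenografts changed in opposite directions against the same adherent arrays. The difference between them, xenografts minus spheres, was -1.61 on the log2 scale (limma, adjusted p = 1.9e-07), with every xenograft array below every sphere array. The opposite directions rested on the brighter VCL probe set. Against adherent cells the dim one gave 0.31 in spheres, which did not pass, and 0.50 in xenografts.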

How the results depend on the processing

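Of 46 calls over the 36 genes and 3 comparisons, 18 passed under all 21 alternatives other than the added 2-fold threshold, under which 1 change was left in xenografts against adherent cells, 1 in spheres against adherent cells and 4 in xenografts against spheres. Without adjustment the methods' t-test gave 21 changed genes for spheres against adherent cells. With Benjamini-Hochberg adjustment it gave 10 changed genes in xenografts set against adherent cells, with 6 against spheres. With 1 array left out, the counts were 16 to 20 for xenografts against adherent cells, 8 to 17 for spheres against adherent cells and 11 to 15 for xenografts against spheres. The lowest sphere count came without spheres replicate 2 or adherent replicate 3 and the highest without xenografts replicate 1. The direction turned with the probe sets used: the mean of all probe sets gave 0.81 for PTK2 in spheres against adherent cells, and, in xenografts against spheres, -0.29 for ITGA2, 0.21 for ITGB4, -0.050 for ITGB8 and 0.15 for PXN. Leaving out probe sets whose names end in _x_at or _s_at gave 0.37 for ITGB4 in xenografts against spheres. The labels do not say whether same-numbered arrays shared more than a number. Their deviations from the group means correlated at -0.18 to 0.18, and for 2 of 9 arrays the best match elsewhere carried the same number. With the replicate number as a block the counts were 18, 10 and 15, for xenografts against adherent cells, spheres against adherent cells and xenografts against spheres, so it moved none of them by over 1.5 times. The cause of these shifts was not tested.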

Other observations

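Adhesion adaptors and kinases outside the member set changed in both directions. Of 41 measured, 14 were lower and 7 higher in xenografts, and 15 lower and 4 higher in spheres, against adherent cells, while xenografts had 15 higher and 8 lower than spheres. Over all genes, 14.3% were lower and 12.6% higher in xenografts, 16.3% and 13.5% in spheres, and in xenografts against spheres 25.7% were higher and 18.3% lower. In xenografts FHL2, a LIM protein that binds integrin tails, was higher (1.48), as was KANK1, which binds talin (0.93), whereas SYNM, an intermediate filament protein (-1.15), and the pseudokinase PEAK1 (-1.01) were lower. In spheres KANK2, a relative of KANK1 (-1.45), GIT2, which binds paxillin (-1.42), and NEXN, an actin-binding protein (-0.97), were lower, and LPXN, a paxillin relative, was higher (1.32).

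Of 8 further integrin subunits measured, 2 were higher and none lower in xenografts, and 2 lower and none higher in spheres, against adherent cells, near the 26.9% and 29.8% of all genes that changed. Xenografts had 4 higher and none lower than spheres, where 44.0% of all genes changed, 25.7% higher and 18.3% lower. Among the 4 was ITGB2, the beta chain of leukocyte integrins (0.71), which is also 1 of the leukocyte markers. A dim ITGA2 probe set, chosen after its values were seen, was higher in spheres than in adherent cells (0.94, adjusted p = 4.1e-05), whereas the brightest ITGA2 probe set gave 0.10.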
